A study of Mus musculus with 4 samples.

Results

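The cluster of miR-216 and miR-217 genes gives rise to 6 mature microRNAs (miRNAs), a 5p and a 3p arm from each of 3 hairpins: mmu-miR-216b-5p, mmu-miR-216b-3p, mmu-miR-216a-5p, mmu-miR-216a-3p, mmu-miR-217-5p and mmu-miR-217-3p. They were taken by name from the table of raw counts, and all 6 were among its 1326 listed miRNAs and among the 584 that held enough counts to be tested. The libraries came from whole mouse retina at E18.5, a late embryonic stage when dividing progenitors and young neurons lie side by side. The 2 Ptf1a-/- libraries were from retina with no functional copy of Ptf1a, and the 2 Ptf1a+/- libraries from retina with a single functional copy, so the Ptf1a+/- libraries are no wild type either. The series title names miR-216b, amacrine cells and the transcription factor gene Foxn3, and the comparison asked how the miRNAs of the retina differ when Ptf1a is lost. The labels describe no allele and leave unsaid if replicate libraries stem from different embryos, so the p-values speak only to the spread among these 4 libraries, which may be technical. Ptf1a messenger RNA is too long for these libraries and could not be used to check the genotypes.

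PTF1A, a DNA-binding protein of the basic helix-loop-helix class, commits retinal progenitors to become amacrine or horizontal cells, which are interneurons. The same factor is needed to form the pancreas, where the miRNAs of this cluster are abundant in the acinar cells that secrete digestive enzymes. A miRNA hairpin is cut into a short duplex, of which usually a single strand is kept in an Argonaute protein and guides it to messenger RNAs through its seed, the bases near its 5′ end.

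The mature sequences show how the arms differ in what they could pair with, and are given as RefSeq lists them on GRCm38.p6, with the seed (bases 2 to 8 from the 5′ end) in capitals.
mmu-miR-216b-5p: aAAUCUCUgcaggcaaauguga
mmu-miR-216a-5p: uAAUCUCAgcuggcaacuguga
mmu-miR-217-5p: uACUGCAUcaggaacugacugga
mmu-miR-216b-3p: aCACUUACcuguagagauucuu
mmu-miR-216a-3p: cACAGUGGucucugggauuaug
mmu-miR-217-3p: cAUCAGUUccuaaugcauugccu
No pair of the 6 arms shared a full seed, and none of the other mature miRNAs among the 1679 names in the RefSeq table had the seed of any arm. The 5p arms of miR-216b and miR-216a were alike at 18 of 22 positions. Counted from 1 at the 5′ end and written from miR-216a-5p to miR-216b-5p, the differences were U1A, A8U, U11A and C17A. These arms therefore had bases 2 to 7 in common and differed at the last base of the seed.

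All 3 hairpins lie on the plus strand of mouse chromosome 11 (GRCm38), in the order Mir216b (chr11:28746191-28746276), Mir216a (chr11:28757012-28757083) and Mir217 (chr11:28763728-28763835). The hairpins are printed with the mature arms in capitals, to show the stem that holds both arms and the loop between them.
Mir216b: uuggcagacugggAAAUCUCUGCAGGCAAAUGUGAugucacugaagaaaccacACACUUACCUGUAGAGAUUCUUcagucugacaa
Mir216a: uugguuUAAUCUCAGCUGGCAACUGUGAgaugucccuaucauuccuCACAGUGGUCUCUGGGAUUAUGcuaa
Mir217: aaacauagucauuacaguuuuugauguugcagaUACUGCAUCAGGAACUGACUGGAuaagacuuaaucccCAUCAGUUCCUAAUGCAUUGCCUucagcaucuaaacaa
The arms were 18 bases apart in Mir216b and Mir216a, and 14 in Mir217. Mir216b and Mir216a were separated by 10735 bases and Mir216a and Mir217 by 6644, and the whole cluster spanned 17645 bases. Mir216b lay inside the span of the long noncoding RNA gene Mir217hg of RefSeq (28730633 to 28751781). Mir216a and Mir217 lay in intron 2 of Gm12082, a noncoding gene of 4 exons in GENCODE M21 (28751633 to 28815767) whose span overlaps the end of Mir217hg. The only other miRNA hairpin of the RefSeq table within a megabase was Mir216c, which lies on the minus strand opposite Mir216b. No arm of miR-216c was listed in the count table, so its reads were not analysed here.

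**Figure D1:**
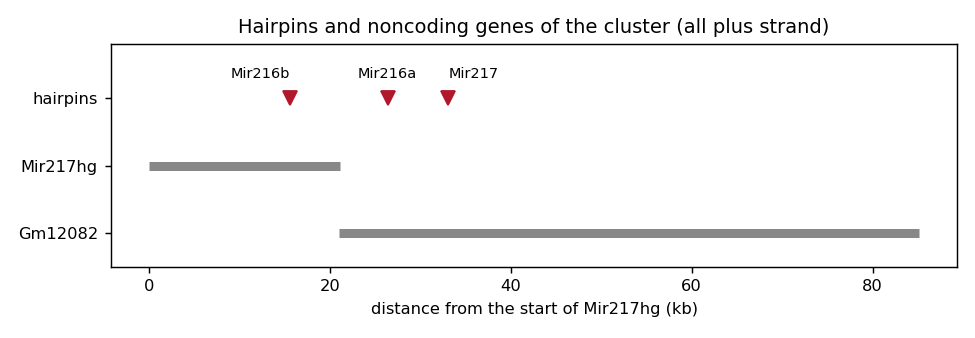
Map of the cluster, with the distance from the start of Mir217hg in kilobases on the x axis; triangles mark the 3 hairpins and grey bars the spans of 2 noncoding genes. Mir216b falls within Mir217hg, and Mir216a and Mir217 fall within Gm12082.

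The most frequent sequence that the authors deposited for each arm and library showed which form of each arm was present. miR-216b-5p, miR-216b-3p and miR-216a-5p had the reference sequence as their most frequent form in all 4 libraries. The most frequent form of miR-217-5p was the same in all 4 libraries and ended 1 base before the RefSeq form, without the last A. miR-216a-3p carried an added 3′ T in both Ptf1a-/- libraries and in Ptf1a+/- replicate 1, and had the reference length in Ptf1a+/- replicate 2. miR-217-3p started 1 base later than the reference in all 4 libraries, which moved its seed.
miR-217-3p, most frequent form, with the shifted seed in capitals: aTCAGTTCctaatgcattgcct
A start later than the reference in all 4 libraries was found for 33 of the 584 tested miRNAs (5.65%), and the same most frequent sequence in all 4 for 408 (69.9%). In Ptf1a-/- replicate 2 the most frequent miR-217-3p sequence also carried T23A (position in the reference), in a library with only 11 counts of that arm. The shifted seed of miR-217-3p was the same in all 4 libraries, and no arm's seed differed between the genotypes in its most frequent form.

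The libraries held 3658490 and 3917069 listed counts in Ptf1a-/- and 3647145 and 4385834 in Ptf1a+/-. Levels are given as TMM-scaled CPM, counts brought to the same library total after a correction that sets the bulk of miRNAs equal between libraries. On this scale 3 counts, the limit that a count of 0 allows, correspond to 0.638 to 0.923 CPM (counting error only). The authors' total behind their own CPM was inferred here from the counts and CPM of abundant miRNAs, and was larger than the listed counts. The listed counts fell short of it by 22.7 and 27.9% in Ptf1a-/-, against 17.05 and 16.3% in Ptf1a+/-. What that total counts is not stated. Over 555 miRNAs the Ptf1a-/- libraries differed from each other by a chi-square of 120.1 per degree of freedom, where sampling noise alone gives about 1; over 579 miRNAs the Ptf1a+/- libraries differed by 1.85 (p = 5.12e-32). The Ptf1a+/- pair was thus close to what repeated sampling of a single library would give, and was kept as 2 replicates. The defining miRNAs of retina were abundant, with the summed level of 5 (miR-124-3p, miR-9-5p, miR-183-5p, miR-182-5p and miR-96-5p) at 363414 and 517788 CPM in Ptf1a-/- and 340223 and 336990 CPM in Ptf1a+/-. Of these 5, 2 had both Ptf1a-/- libraries above both Ptf1a+/- libraries and 2 had both below. The 2 below were miR-124-3p, with 1019 and 832 CPM in Ptf1a-/- against 1020 and 1033 CPM, and miR-96-5p, with 4615 and 5832 CPM against 6687 and 6545 CPM. Of the miRNAs that mark other tissue, the erythroid miR-451a and the mural miR-145a-5p stayed at or below 0.308 CPM in every library, miR-144-3p at or below 0.516 CPM, and the epithelial miR-205-5p was not listed. Other markers on the same lists were present. The blood marker miR-486a-5p had 63.5 and 95.7 CPM in Ptf1a-/- against 72.8 and 69.8 CPM in Ptf1a+/-. The vessel and mural marker miR-143-3p had 13.2 and 20.6 CPM in Ptf1a-/- against 33.8 and 34.2 CPM in Ptf1a+/-. The tested marker miRNAs were 1 of blood, 3 of striated muscle, 2 of vessels, 3 of lens or surface epithelium and 3 of pigment epithelium. Of these markers, 2 were called lower in Ptf1a-/- (threshold below), against 21 of all 584 tested miRNAs (3.60%). The 2 markers were miR-204-3p, with 252 and 289 CPM in Ptf1a-/- against 396 and 391 CPM in Ptf1a+/-, and miR-200b-3p, with 0.258 and 0.923 CPM against 6.46 and 6.59 CPM. The summed vessel and mural markers stood at 337 and 566 CPM in Ptf1a-/-, against 580 and 598 CPM in Ptf1a+/-, and the summed pigment epithelium markers at 3203 and 3565 CPM, against 3689 and 3728 CPM. The lens and surface epithelium sum overlapped between the genotypes, at 227 and 300.4 CPM in Ptf1a-/- against 305 and 292 CPM in Ptf1a+/-, and the striated muscle sum was higher, at 65.0 and 70.2 CPM against 48.5 and 51.3 CPM. The part of these differences in the results below was not tested.

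In retinas without functional Ptf1a, 3 of the 6 arms fell, miR-216b-5p, miR-216a-3p and miR-217-5p, while 21 of 584 tested miRNAs (3.60%) were called lower and 36 (6.16%) higher. A call means an adjusted p under 0.05 in edgeR's quasi-likelihood test with Benjamini-Hochberg adjustment over all 584 miRNAs. Both Ptf1a-/- libraries lay below both Ptf1a+/- libraries for all 6 arms, as they did for 31.5% of the 584 miRNAs. The median log2 fold change was -1.01 over the 6 arms and -0.00307 over all tested miRNAs. The arms' median was -1.51 without Ptf1a-/- replicate 1 and -0.67 without Ptf1a-/- replicate 2. Calls leaned higher overall (63.2% of them), which turned with the scaling: 25% were higher with library size alone, 6.90% with the authors' total and 3.57% with limma on the deposited CPM. Under those scalings the arms' median stayed between 1.00 and 1.03 below that of all miRNAs. In whole retina, fewer cells that hold a miRNA and less of it per cell cannot be told apart.

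miR-216b-5p, the abundant arm of the miRNA named in the series title, stood at 1132 and 636 CPM in the 2 Ptf1a-/- libraries, against 2482 and 2550 CPM in the 2 Ptf1a+/- libraries. Both Ptf1a-/- libraries were far below the Ptf1a+/- pair, and replicate 2 was the lower. The means were 884 ± 351 CPM in Ptf1a-/- and 2516 ± 48.1 CPM in Ptf1a+/- (SD, n = 2 each), which put Ptf1a-/- at 35.1% of Ptf1a+/-. The log2 fold change was -1.51 ± 0.26 (SE, adjusted p = 0.0243, edgeR). By level the arm held rank 75 and 99 of all listed miRNAs in Ptf1a-/- and rank 46 in each Ptf1a+/- library.

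miR-216b-3p, the other strand of that hairpin, was rare, at 21.9 and 9.23 CPM in Ptf1a-/- against 24.0 and 23.4 CPM in Ptf1a+/-. Its counts were 85 and 30 in Ptf1a-/- and 93 and 110 in Ptf1a+/-. The level in Ptf1a-/- replicate 1 had a counting interval of 17.5 to 27.1 CPM (exact Poisson, 95%), which holds both Ptf1a+/- values, while that in replicate 2 (6.23 to 13.2 CPM) lay below them. Its log2 fold change of -0.57 ± 0.37 did not pass (adjusted p = 0.401, edgeR).

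miR-216a-5p, whose seed shares all but the last base with miR-216b-5p, had 183 and 78.8 CPM in Ptf1a-/- against 317 and 322 CPM in Ptf1a+/-. The genotypes did not overlap, but the Ptf1a-/- libraries were more than a log2 unit apart (replicate 2 over replicate 1, -1.22). Its means were 131 ± 74.0 CPM in Ptf1a-/- and 319 ± 3.97 CPM in Ptf1a+/- (SD, n = 2 each). The log2 fold change of -1.27 ± 0.35 did not pass (adjusted p = 0.0844, edgeR), although it was larger in size than those of 2 arms that did. With DESeq2's Wald test it passed (adjusted p = 0.000663).

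miR-216a-3p stood at 75.1 and 57.9 CPM in Ptf1a-/- against 149 and 153 CPM in Ptf1a+/-. Here the Ptf1a-/- libraries were the closest of any arm (replicate 2 over replicate 1, -0.38 on the log2 scale). The means were 66.5 ± 12.2 CPM in Ptf1a-/- and 151 ± 3.10 CPM in Ptf1a+/- (SD, n = 2 each). The log2 fold change was -1.18 ± 0.16 (SE, adjusted p = 0.0124, edgeR), the smallest p of the 6 arms.

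miR-217-5p, the most abundant arm of the cluster in every library, had 2115 and 1517 CPM in Ptf1a-/- against 3043 and 3092 CPM in Ptf1a+/-. The means were 1816 ± 423 CPM in Ptf1a-/- and 3067 ± 34.9 CPM in Ptf1a+/- (SD, n = 2 each), so that Ptf1a-/- kept 59.2% of the Ptf1a+/- level. Its log2 fold change of -0.76 ± 0.17 had an adjusted p of 0.04997 (edgeR), at the threshold itself. With TMM factors taken from all listed miRNAs rather than those tested, the adjusted p was 0.0509 and the arm was not called.

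miR-217-3p was the rarest arm, at 8.0 and 3.39 CPM in Ptf1a-/- against 11.4 and 9.78 CPM in Ptf1a+/-, from 31 and 11 counts in Ptf1a-/- and 44 and 46 counts in Ptf1a+/-. The counting interval in Ptf1a-/- replicate 1, 5.44 to 11.35 CPM, held the level of Ptf1a+/- replicate 2 but not that of Ptf1a+/- replicate 1 (11.36 CPM). The log2 fold change of -0.84 ± 0.40 did not pass (adjusted p = 0.258, edgeR).

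**Figure D2:**
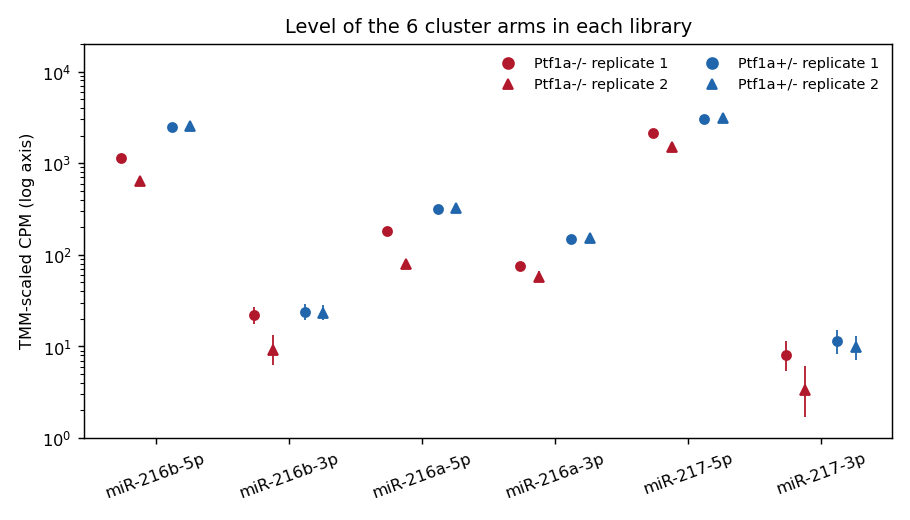
Level of each arm in each library, as TMM-scaled CPM on a log axis; red symbols are Ptf1a-/- and blue ones Ptf1a+/-, circles replicate 1 and triangles replicate 2, and bars are 95% exact Poisson intervals of the counts. Both Ptf1a-/- libraries lie below both Ptf1a+/- libraries for every arm, from 1132 and 636 CPM against 2482 and 2550 CPM for miR-216b-5p to 8.0 and 3.39 CPM against 11.4 and 9.78 CPM for miR-217-3p.

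miR-216b-5p and miR-216a-3p kept their calls with DESeq2 size factors in edgeR (adjusted p = 0.0296 and 0.0149), with the authors' total as library size (0.0199 and 0.0278), with DESeq2's Wald test and with limma on the deposited CPM, and miR-217-5p kept its call with the last 2 of these (0.00347 and 0.0439). None of the 3 passed with the listed counts as library size and no further scaling (log2 fold changes of -1.64, -1.34 and -0.90), with the Ptf1a+/- counts summed into 1 library (-1.54, -1.21 and -0.78, lowest adjusted p 0.346) or without either Ptf1a+/- replicate (-1.55 to -0.76, lowest adjusted p 0.482), while all 6 arms stayed below 0.

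Summed, the 6 arms made up 13698 and 7478 counts in Ptf1a-/- and 23332 and 28918 counts in Ptf1a+/-, or 0.374 and 0.191% of all listed counts against 0.640 and 0.659%. On TMM-scaled CPM the sum was 3535 and 2302 in Ptf1a-/- against 6025 and 6150 in Ptf1a+/-. Against the Ptf1a+/- mean, Ptf1a-/- replicate 1 held 58.1% of the cluster and replicate 2 held 37.8%, log2 changes of -0.78 and -1.40. The level was thus lower in replicate 2, and this was so for each of the 6 arms. Ptf1a-/- replicate 2 also stood apart from the other libraries as a whole. Its TMM factor was 0.829, against 1.06 to 1.07, and 970 miRNAs had a count in it, against 1015 to 1070. The part of this in its lower cluster level was not tested.

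The arms did not move by the same amount within a library. In Ptf1a-/- replicate 1, the log2 change over the Ptf1a+/- mean ran from -1.15 for miR-216b-5p and -1.01 for miR-216a-3p to -0.11 for miR-216b-3p. In Ptf1a-/- replicate 2 it ran from -2.02 for miR-216a-5p and -1.98 for miR-216b-5p to -1.02 for miR-217-5p. miR-216b-5p was among the 2 arms furthest below the Ptf1a+/- mean in both libraries, and miR-217-5p among the 3 nearest to it. The Ptf1a+/- replicates lay within 0.02 of their mean for the 5 more abundant arms and within 0.11 for miR-217-3p.

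**Figure D3:**
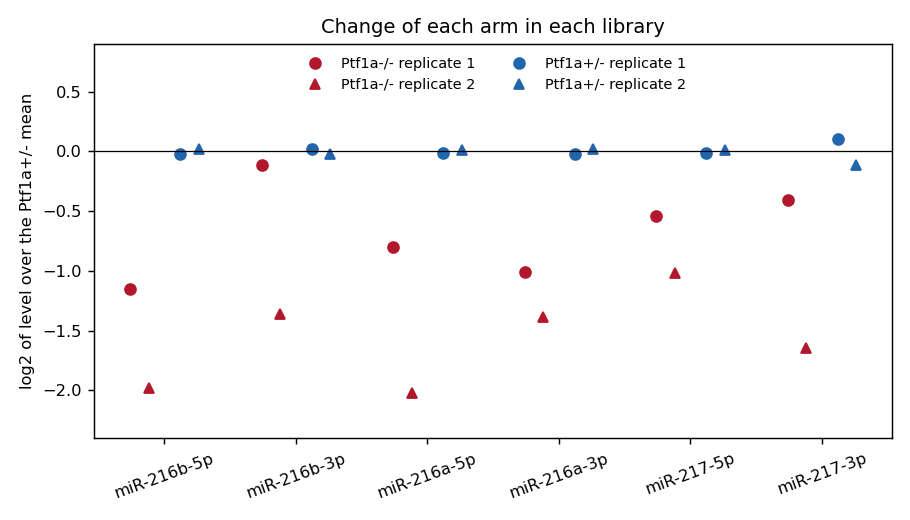
Log2 of each arm's TMM-scaled level over the mean of the 2 Ptf1a+/- libraries, by library; colours and symbols as in the plot of levels. The Ptf1a-/- points run from -0.11 to -2.02, with replicate 2 below replicate 1 for each arm, and the Ptf1a+/- points stay within 0.11 of 0.

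The ratio of the 5p to the 3p arm is taken within a library and does not depend on its scaling. In Mir216b the 5p arm outnumbered the 3p arm 51.6 and 68.8 times in Ptf1a-/- and 103.3 and 109.0 times in Ptf1a+/-. The 3p arm thus made up 1.90 and 1.43% of the hairpin's reads in Ptf1a-/-, against 0.958 and 0.909% in Ptf1a+/-. The exact 95% intervals were 1.52 to 2.35% and 0.968 to 2.04% in Ptf1a-/-, and 0.774 to 1.17% and 0.748 to 1.09% in Ptf1a+/-, and cover counting error only. The log2 ratio averaged 5.88 ± 0.28 in Ptf1a-/- and 6.72 ± 0.06 in Ptf1a+/- (SD, n = 2 each), a difference of -0.84 with an exact two-sided permutation p of 0.333, the smallest that 2 libraries against 2 can give. Over the 3 hairpins compared, the adjusted p (Benjamini-Hochberg) was 1 for each.

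Mir216a was the hairpin that kept most of its 3p arm. The 5p arm outnumbered the 3p arm 2.44 and 1.36 times in Ptf1a-/- and 2.13 and 2.10 times in Ptf1a+/-, so the Ptf1a-/- libraries lay on either side of the Ptf1a+/- pair. The 3p share was 29.0 and 42.3% in Ptf1a-/- and 32.0 and 32.2% in Ptf1a+/-. The difference in log2 ratio was -0.22 (exact permutation p = 1) and changed sign to 0.21 without Ptf1a-/- replicate 2.

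In Mir217 nearly all reads came from the 5p arm, with ratios of 264 and 448 in Ptf1a-/- and 268 and 316 in Ptf1a+/-. The 3p shares were 0.377 and 0.223% in Ptf1a-/- and 0.372 and 0.315% in Ptf1a+/-, and their counting intervals overlapped. The difference in log2 ratio was 0.21 (exact permutation p = 1) and turned to -0.15 without Ptf1a-/- replicate 2. The Ptf1a-/- ratios thus lay on either side of the Ptf1a+/- pair. With 2 libraries against 2 the exact permutation p cannot fall under 0.333, so the test could not decide if the Mir217 arm ratio differed.

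**Figure D4:**
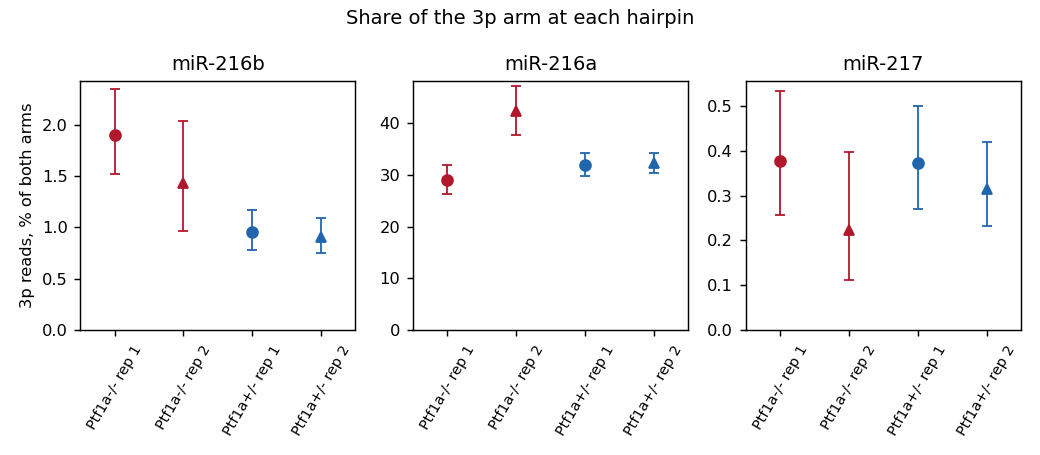
Share of the 3p arm among the reads of both arms, in percent, for each hairpin and library, with exact 95% binomial intervals; each panel has its own y axis, starting at 0. The miR-216b share is higher in both Ptf1a-/- libraries (1.90 and 1.43%) than in the Ptf1a+/- libraries (0.958 and 0.909%), while in the other panels the values of the genotypes overlap.

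The make-up of the cluster, whose shares were not tested, also differed between the libraries of the genotypes. miR-216b-5p contributed 32.0 and 27.6% of the 6 arms' counts in Ptf1a-/-, against 41.2 and 41.5% in Ptf1a+/-, and miR-217-5p 59.8 and 65.9% against 50.5 and 50.3%. For each count of miR-217-5p there were 0.535 and 0.419 counts of miR-216b-5p in Ptf1a-/- and 0.816 and 0.825 in Ptf1a+/-. The log2 ratio differed by -0.79 (Ptf1a-/- at -1.08 ± 0.25, Ptf1a+/- at -0.29 ± 0.01, SD, n = 2 each; exact permutation p = 0.333, the smallest possible). miR-216a-5p also stood lower against miR-217-5p, with ratios of 0.0868 and 0.0519 in Ptf1a-/- and 0.104 in both Ptf1a+/- libraries (difference in log2 ratio -0.63, exact permutation p = 0.333). Between miR-216b-5p and miR-216a-5p the ratio was 6.17 and 8.07 in Ptf1a-/- and 7.84 and 7.91 in Ptf1a+/-, so that Ptf1a-/- lay on both sides (difference in log2 ratio -0.16, exact permutation p = 1). These 3 pairs were chosen after the values were seen, and the lowest p adjusted over them was 0.5.

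Among all 584 tested miRNAs ordered from the most negative log2 fold change, miR-216b-5p came at place 11, miR-216a-5p at 15, miR-216a-3p at 21, miR-217-3p at 34, miR-217-5p at 40 and miR-216b-3p at 66. The most abundant of those ahead of miR-216b-5p was miR-190b-5p, with 7.74 and 7.08 CPM in Ptf1a-/- against 111 and 99.1 CPM in Ptf1a+/-. Of the 79 miRNAs with a mean level of at least 1000 CPM, a limit set after the values were seen, miR-216b-5p had the most negative log2 fold change and miR-217-5p the next. miR-216b-5p reached that limit through its Ptf1a+/- level (mean 2516 CPM, against 884 CPM in Ptf1a-/-), so its place there is a description only. Other limits were not tried. miR-216b-5p and miR-217-5p stand at the lower edge of the abundant miRNAs in the plot of change against level.

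**Figure D5:**
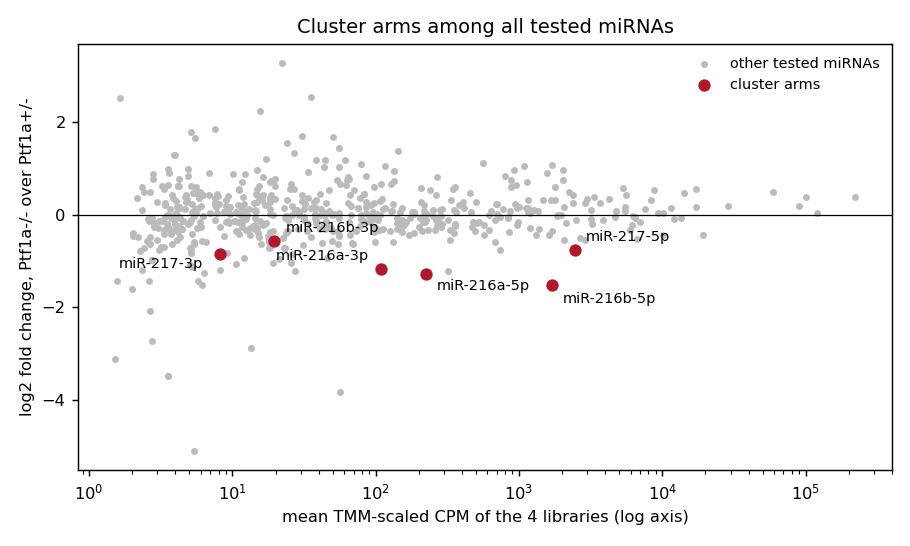
Log2 fold change, Ptf1a-/- over Ptf1a+/-, against the mean TMM-scaled CPM of the 4 libraries (log axis) for the 584 tested miRNAs, with the 6 cluster arms in red. The arms lie between -0.57 and -1.51. miR-216b-5p and miR-217-5p are the 2 lowest of the 79 miRNAs at 1000 CPM or more, a limit set after the values were seen.

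The miRNAs whose profile was most like that of the cluster were found by the root mean square difference, over the 4 libraries, between the centred log2 levels of each of the other 578 tested miRNAs and the mean of the 6 arms. The nearest was miR-483-3p, from an intron of the growth factor gene Igf2, at a distance of 0.09 log2 units. It had 6.71 and 3.08 CPM in Ptf1a-/- against 11.1 and 11.9 CPM in Ptf1a+/- (log2 fold change -1.19 ± 0.37, adjusted p = 0.108, edgeR). miR-7648-3p and miR-351-3p followed, both at 0.15, then miR-1247-5p and miR-449c-5p, both at 0.23, while the median over all tested miRNAs was 0.64. Of these 5, only miR-1247-5p passed, with 34.6 and 28.3 CPM in Ptf1a-/- against 62.0 and 58.3 CPM in Ptf1a+/- (-0.93 ± 0.18, adjusted p = 0.0293, edgeR). miR-351-3p stood at 8.52 and 4.93 CPM in Ptf1a-/- against 16.8 and 12.3 CPM in Ptf1a+/-, and the other 2 were below 4 CPM in every library.

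Other miRNAs abundant in the pancreas, the other organ that needs Ptf1a, had other values. Of the 6 tested (3 from the miR-7a hairpins, both arms of miR-148a and miR-375-3p), none was called in either direction, and none had both Ptf1a-/- libraries below both Ptf1a+/- libraries. Their log2 fold changes ran from -0.07 to 1.33, with a median of 0.13. miR-148a-3p, an acinar miRNA, had 10204 and 15997 CPM in Ptf1a-/- against 13741 and 13723 CPM in Ptf1a+/-, so that the Ptf1a-/- libraries lay on either side. miR-7a-5p, which is also found in islet cells and neurons, had 9361 and 11284 CPM against 7434 and 6845 CPM (log2 fold change 0.53 ± 0.14, adjusted p = 0.0781, edgeR). miR-375-3p, best known from islet cells, had 18.8 and 58.2 CPM against 13.9 and 16.0 CPM (1.33 ± 0.54, adjusted p = 0.194, edgeR).

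Of the 10 measured members of the miR-181 family, which is found in the inner retina where amacrine cells lie, 1 fell and 9 did not pass (3.60% of all tested miRNAs were called lower). For 8 of the 10, both Ptf1a-/- libraries lay below both Ptf1a+/- libraries, as for 31.5% of all tested miRNAs. For 1 of the 10 both lay above, as for 156 of all 584 tested miRNAs. miR-181b-1-3p had 14.7 and 18.8 CPM in Ptf1a-/- against 34.6 and 34.03 CPM in Ptf1a+/- (log2 fold change -1.04 ± 0.21, adjusted p = 0.0368, edgeR). miR-181a-5p, the most abundant member, had 15819 and 16877 CPM against 22276 and 22333 CPM, and miR-181b-5p 8120 and 9052 CPM against 11679 and 11557 CPM. Their log2 fold changes of -0.45 ± 0.12 and -0.44 ± 0.12 did not pass (adjusted p = 0.0844 for each, edgeR). The median of the family was -0.20, against -1.01 for the cluster.

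In the sequence below, capitals mark matches to the E-box CANNTG, the letters bound by basic helix-loop-helix factors. The sequence is the promoter of Mir217hg, the noncoding gene whose span holds Mir216b but neither Mir216a nor Mir217. It spans chr11:28730383-28730682 on the plus strand (GRCm38.p6), around a gene start that lies 15558 bases before the start of the Mir216b hairpin. The start of Gm12082, which holds Mir216a and Mir217, was not searched.
Mir217hg promoter: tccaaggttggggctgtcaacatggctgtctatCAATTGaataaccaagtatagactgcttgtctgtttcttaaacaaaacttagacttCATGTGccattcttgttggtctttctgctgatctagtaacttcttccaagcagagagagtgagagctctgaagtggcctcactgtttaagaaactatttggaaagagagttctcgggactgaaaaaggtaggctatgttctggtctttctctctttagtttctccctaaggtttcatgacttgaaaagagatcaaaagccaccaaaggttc
The promoter holds 2 such matches. On both strands, at least 1 CANNTG was found in 72.3% of the 32851 promoters of the same length in the table. The E-box form CAGCTG is not in this window and is held by 16.3% of all promoters. The form CACCTG, likewise searched on both strands, is also not in it, against 20.2% of all. The PTF1 complex that contains PTF1A binds an E-box together with a TC-box, TTTCCC, which is not in the window on either strand and is held by 25.2% of all promoters. No binding was measured here.

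The 3′ untranslated region of Foxn3, the target gene named in the series title, was searched for the sites that the seeds of the 6 arms would pair with. In the longest annotated form (GENCODE M21, 6189 bases, chromosome 12, minus strand), miR-216b-5p had no match to its full seed (AGAGATT), which 45.0% of 633 untranslated regions of like length (4962 to 7734 bases, 1 per gene) held. Bases 2 to 7 alone matched at 3 places, and the share of the 633 with such a match was not taken. At 1 of the 3 the match was followed by an A (GAGATTA), and 31.8% of the 633 held that. Because miR-216a-5p has the same bases 2 to 7, the same place was also a match to its full seed (TGAGATT), the only one in this region; 47.2% of the 633 regions held such a match.
Foxn3 site at chr12:99195197-99195219, written on the transcript strand with the miR-216a-5p seed match in capitals: attatggtgtctttaTGAGATTa
miR-217-5p and miR-216a-3p each had 1 match to the full seed (ATGCAGT and CCACTGT, held by 43.4 and 49.3% of the 633), and miR-216b-3p and miR-217-3p had none, miR-217-3p in neither its reference nor its shifted form. Bases 2 to 7 alone matched at 4 places for miR-216a-3p, 3 for miR-216b-3p, 2 for miR-217-5p and 0 for miR-217-3p. By bases 2 to 7 followed by an A, miR-216b-3p also had 1 match (TAAGTGA, held by 34.9% of the 633), and miR-217-5p, miR-216a-3p and miR-217-3p had none. Sites of this kind were thus common in regions of this length, and Foxn3 messenger RNA was not measured in these libraries.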

How the data were processed

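Small RNA was sequenced from 4 retina libraries, 2 of Ptf1a-/- and 2 of Ptf1a+/-, grouped by their titles. Per the labels' protocols, a gel cut kept RNA of 18 to 30 nt and a New England Biolabs kit was used; ligation, PCR and size selection favour some sequences, so a miRNA compares better between libraries than with other miRNAs. The protocols mention no molecular identifiers. The submitters' processing notes name bcl2fastq 2.20.0.422; for the aligner, counter and build nothing is given in the sources used.

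The deposited raw table holds estimated counts (5.73 to 7.84% of values per library are not whole; those of the 6 arms are), which were rounded. The deposited CPM table was used in alternatives, and the third deposited table gives the most frequent sequence, which is text of another kind. edgeR 4.0.16 (R 4.3.3, quasi-likelihood, legacy=FALSE, TMM, genotype only) was run on the 584 miRNAs that reached 10 counts in 2 or more libraries; SE were derived from the fit. limma 3.58.1 and DESeq2 1.42.0 were alternatives. The fit was also run on simulated data with planted changes. That check covered the direction and scale of the log2 fold changes, and not the rate of false calls. Sequences and positions are from RefSeq (GRCm38.p6) and GENCODE M21; all 6 arms matched by name. Ratios had 0.5 counts added on the log2 scale.

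The members and lists were chosen with earlier results of these data known. Named miRNAs are the 6 arms, the 5 nearest in profile, called list members and the 2 most abundant of a list; miR-375-3p was named after its values were seen. The replicate numbers of the titles are not stated to mark a shared litter or day and were not used as pairs.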

Additional observations from a re-analysis of the deposited data

How the results depend on the processing

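All 6 arms stayed below 0 in every alternative in which they were tested (a minimum of 50 counts left out miR-217-3p). Over all results and alternatives, 152 values were on the same side of the threshold, within the spread or, for counts of calls, close to the reported count. By that rule, 2 or 4 arms called in place of 3 were taken as unchanged. Of the rest, 28 lost a call, 10 gained one, 26 counts or untested values moved further than that and 2 changed sign. For the 5p to 3p ratios, leaving out 1 library always shifts the difference by less than the spread used. Those values could only stay or change sign, so their count among the 152 says nothing of stability. With library size only, 12 miRNAs were lower, 4 higher and 0 arms called (miR-216b-5p -1.64, adjusted p = 0.0590; miR-216a-3p -1.34, 0.0542; miR-217-5p -0.90, 0.104; edgeR). miR-217-5p also missed the threshold with DESeq2 size factors (-0.75, adjusted p = 0.0587), with the authors' total as library size (-1.05, 0.0519; 2 miRNAs higher, cluster sum of Ptf1a-/- replicate 2 at -1.97) and with TMM over all listed miRNAs (-0.76, 0.0509), which was chosen after seeing the data. Without the filter, 9 were lower, 12 higher and 1 arm called (miR-216b-5p -1.51, adjusted p = 0.0588; miR-217-5p -0.76, 0.116). With DESeq2's Wald test miR-216a-5p passed (-1.27, adjusted p = 0.000663), and limma on the deposited CPM called 1 higher. Of the miRNAs nearest in profile, miR-1247-5p lost its call with library size only (adjusted p = 0.0785), the authors' total (0.0519), no filter (0.0637), the replicate block (0.0825) and limma (0.0548), at -1.27 to -0.93, and with the Ptf1a+/- pair summed or either of its libraries left out (0.399 to 0.587).

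The replicate numbers are only shared names (correlation of same-numbered deviations 0.0503 over 584 miRNAs); with a replicate block, 7 were lower, 5 higher and 0 arms called (miR-216b-5p -1.57, adjusted p = 0.0531; miR-216a-3p -1.19, 0.0521; miR-217-5p -0.78, 0.103). With the Ptf1a+/- pair summed, edgeR called 1 lower, 0 higher and 0 arms, with 54 miRNAs at an unadjusted p under 0.05 (miR-216b-5p -1.54 and miR-216a-3p -1.21, adjusted p = 0.346; miR-217-5p -0.78, 0.492). Fits with a lone library assume that it varies like the other genotype. Leaving out 1 library at a time gave 0 to 137 lower, 0 to 137 higher and 0 to 6 arms called. Without Ptf1a-/- replicate 1, 127 were lower, 137 higher and 6 arms called; without Ptf1a-/- replicate 2, 137, 136 and 4; without Ptf1a+/- replicate 1, 0, 0 and 0 (46 at an unadjusted p under 0.05, edgeR); without Ptf1a+/- replicate 2, 1, 0 and 0. The log2 fold changes ran from -2.03 (without Ptf1a-/- replicate 1) to -0.80 (without Ptf1a-/- replicate 2) for miR-216a-5p, -1.39 to -1.01 for miR-216a-3p, -1.99 to -1.15 for miR-216b-5p, -1.36 to -0.11 for miR-216b-3p, -1.03 to -0.53 for miR-217-5p and -1.63 to -0.39 for miR-217-3p. The difference in 5p to 3p log2 ratio ran from -0.64 to 0.21 for miR-216a and from -0.15 to 0.57 for miR-217, and both changed sign without Ptf1a-/- replicate 2. The cause was not tested. Counts of 11 to 46 limit miR-217-3p, and counts of 30 to 110 miR-216b-3p.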
